A study of Mus musculus with 48 samples.

Results

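The 10 genes described here are common readouts of the unfolded protein response and the integrated stress response: Atf4, Ddit3, Hspa5, Xbp1, Trib3, Chac1, Asns, Hsp90b1, Pdia4 and Herpud1. They were chosen by symbol, and all 10 were found among the 24060 gene rows of the count table. The data are RNA sequencing counts from mouse striatum, in 6 groups of 4 replicates. Each replicate gave 2 libraries, so there were 48 in all, and both came from 1 mouse by the titles. MPTP replicate 2 is an exception, where the IP and the input carry the names of separate animals. The title of wild-type replicate 3, the same for IP and input, may join more than 1 animal. One library held the RNA pulled down with ribosomes that carry an HA tag (the immunoprecipitate, IP below), and the other held RNA of the whole tissue lysate (input).

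Every mouse, the controls included, had received an adeno-associated virus that puts HA-tagged Rpl22, a ribosomal protein, into striatal astrocytes (the RiboTag method) 3 weeks before RNA was collected. The mice were adults of a C57 strain, of unstated age. In the first experiment, vehicle mice were set against mice given MPTP, a dopaminergic neurotoxin, at 20 mg/kg in 4 doses. The labels give microinjection into the striatum as the route of both, which was not checked against another source. In the second, wild-type littermates were set against SAPAP3 knockout mice, a model of compulsive grooming in which Dlgap3, the gene of a postsynaptic scaffold protein, is disrupted. In the third, both groups were R6/2 mice, which carry a fragment of the human huntingtin gene with a long CAG repeat. Those mice received either a control virus cargo or hM4Di, a designer receptor that couples to Gi proteins, in their astrocytes. The labels used here do not say which agonist the hM4Di mice received or when, and no mouse without the R6/2 transgene was part of that experiment. The titles give each experiment a project number of its own, so a difference between experiments and a difference between projects cannot be told apart. Replicate numbers below are those of the source labels in the MPTP and SAPAP3 experiments, and of the animal names in the R6/2 titles.

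The unfolded protein response is set off when misfolded proteins gather in the endoplasmic reticulum (ER). The sensors PERK, IRE1 and ATF6 then slow translation, splice Xbp1 mRNA into its active form and raise the ER's chaperones. PERK is also a kinase of the translation factor eIF2α, and so are GCN2, which senses uncharged tRNA, and other stress kinases. Their shared output, the integrated stress response, lowers translation in general while the mRNA of the transcription factor ATF4 is translated more, and ATF4 then switches on amino acid genes and the factor CHOP. Because ATF4 and XBP1 are controlled largely by translation and splicing, a count of their mRNA does not measure their activity. Gene-level counts also do not separate spliced from unspliced Xbp1.

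Depth was 34316801 to 61456591 counts in the IP libraries and 21901847 to 38983930 in the inputs. Levels are given as CPM, counts relative to the library total, scaled by trimmed mean of M values over all 48 libraries. The IP was rich in astrocyte RNA: 12 of 12 astrocyte markers were more than 2-fold higher in IP than in input in each experiment, and 10 of 10 microglial and 11 of 11 striatal medium spiny neuron markers were lower. Ependymal markers were enriched too, 5 of 5 more than 2-fold in each experiment. In the SAPAP3 experiment 6 of 8 oligodendrocyte and 6 of 6 oligodendrocyte precursor markers were higher in IP. Precursor markers were also higher in the MPTP experiment, 5 of 6, while in R6/2 mice 0 were higher and 3 lower. Of 7 pan-neuronal markers, 4, 1 and 3 were higher in IP in the MPTP, SAPAP3 and R6/2 experiments, and 2, 5 and 2 were lower. These counts take an adjusted p under 0.05 by edgeR. The inputs hold RNA of every striatal cell type, whatever tissue name the labels give them. Dlgap3 was 56.6 to 97.8 CPM in the knockout IP libraries against 173 to 229 in wild type, and 160 to 195 against 368 to 475 in input. Chrm4, the mouse gene of the receptor from whose human form hM4Di was made, was 555 to 860 CPM in the hM4Di IP libraries against 37.5 to 65.2 in their controls. Wild-type replicate 1 stood apart, with medium spiny neuron markers summing to 9170 CPM in its input against 5190 to 6060 in the other 3. In bulk libraries such as these, fewer cells of a type and less RNA per cell cannot be told apart.

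By role, the first members are the ER's folding machinery. Hspa5 (chr2:34771970-34777547, + strand) encodes BiP, the ER's main Hsp70 chaperone, which also holds the stress sensors inactive. Hsp90b1 (chr10:86690209-86705509, - strand) encodes GRP94, the ER's Hsp90. Pdia4 (chr6:47796141-47813430, - strand) encodes a disulfide isomerase of the ER. Herpud1 (chr8:94386438-94395377, + strand) encodes a membrane protein of ER-associated degradation, and Xbp1 (chr11:5520659-5525893, + strand) encodes the factor activated by IRE1. The remaining members belong to the integrated stress response. Atf4 (chr15:80255184-80257541, + strand) encodes its central transcription factor, and Ddit3 (chr10:127290774-127296288, + strand) encodes CHOP. Trib3 (chr2:152337422-152344032, - strand) encodes a pseudokinase that feeds back on ATF4 and CHOP. Chac1 (chr2:119351229-119354381, + strand) encodes an enzyme that degrades glutathione, and Asns (chr6:7675169-7693254, - strand) encodes asparagine synthetase. These positions are from GENCODE M21 on GRCm38, where 2 overlapping gene models carry the name Ddit3, so its counts are less certain than those of the other 9 genes.

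The 2 branches are known for different promoter elements. The sequences below show which members hold an exact match to each one in the 300 bases from 250 before to 50 after the RefSeq start (GRCm38.p6). The ER stress response element was searched as CCAAT and CCACG with 9 bases of any kind between them, its second form as ATTGG and CCACG with 1 base between, and the C/EBP-ATF response element bound by ATF4 as TGATGNAA. Both strands were searched, and no matches overlapped. The first element was found in 2 members and 0.119% of 32851 promoter windows, the second in 1 member and 0.0365%, and the third in 4 members and 3.97%. Capitals mark the match. A match is a stretch of letters and not a shown binding site. Variants of these patterns were not searched, so a member without a match may still carry the element. The sites run 5′ to 3′ on the gene's strand.
Hspa5, ER stress response element, chr2:34772020-34772049: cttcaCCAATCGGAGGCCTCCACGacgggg
Hsp90b1, ER stress response element, chr10:86705632-86705661: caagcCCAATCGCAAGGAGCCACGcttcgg
Hsp90b1, ER stress response element on the opposite strand, chr10:86705527-86705556: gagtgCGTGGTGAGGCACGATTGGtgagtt
Herpud1, second form, chr8:94386368-94386397: cgggcgctgATTGGGCCACGttggacactg
Herpud1, C/EBP-ATF element on the opposite strand, chr8:94386306-94386335: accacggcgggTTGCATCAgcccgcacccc
Asns, C/EBP-ATF element, chr6:7693214-7693243: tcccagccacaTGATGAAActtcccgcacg
Chac1, C/EBP-ATF element on the opposite strand, chr2:119351038-119351067: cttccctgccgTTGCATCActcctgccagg
Trib3, C/EBP-ATF element on the opposite strand, chr2:152344028-152344057: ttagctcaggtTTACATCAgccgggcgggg

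Herpud1 was the member whose window held a match to an element of each kind. Its 250 bases upstream are shown because both matches can be seen in place there, the C/EBP-ATF element 112 bases and the second ER stress form 52 bases before the start.
Herpud1 upstream, chr8:94386179-94386428, + strand: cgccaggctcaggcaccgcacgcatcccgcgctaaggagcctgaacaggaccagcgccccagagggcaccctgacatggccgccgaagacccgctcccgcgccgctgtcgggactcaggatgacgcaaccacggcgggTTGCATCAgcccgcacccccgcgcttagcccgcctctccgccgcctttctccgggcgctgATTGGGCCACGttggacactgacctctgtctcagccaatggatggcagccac

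Per unit of transcript length the chaperones were the most abundant of the 10 in astrocyte IP, and the stress-induced effectors Chac1 and Trib3 were the lowest. In vehicle IP the levels in FPKM, which are scaled for transcript length and depth (mean ± SD, n = 4), were 240 ± 26.7 for Hsp90b1 and 194 ± 32 for Hspa5. Pdia4 stood at 61.1, Asns at 44.7, Herpud1 at 37.5, Xbp1 at 36.9, Atf4 at 34.9 and Ddit3 at 27.8 FPKM. Chac1 was at 1.54 and Trib3 at 0.49 FPKM. In R6/2 control IP the FPKM of Hspa5 was 186 and of Hsp90b1 169, and Asns, at 67.3, stood above Pdia4, at 49.8. Trib3 was at 0.187 FPKM there.

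The order of the 6 conditions differed from gene to gene. Hsp90b1 in IP was 687, 699, 872 and 769 CPM in vehicle mice and 482, 500, 500 and 462 CPM in R6/2 control mice. The vehicle and MPTP libraries were the highest of all, and the vehicle range did not reach down to the next group in order, the SAPAP3 knockout. Ddit3 in input was 30.7, 30.6, 33.2 and 27.5 CPM in vehicle mice and 24.3, 20.4, 15.8 and 20.7 CPM in wild-type littermates, which did not overlap. Asns went the other way in IP, with its highest levels in R6/2 control mice, at 131, 139, 129 and 139 CPM. Its hM4Di level came next, and neither range overlapped its neighbour in the order; the other 4 groups lay within 86.1 to 108 CPM. For Atf4, Hspa5, Herpud1 and Trib3, no neighbouring groups in the order were separate in either fraction. The experiments were separate projects, so these differences have no test here. The share of all genes whose groups separate in this way was not counted, so whether these separations are unusual cannot be said.

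**Figure D1:**
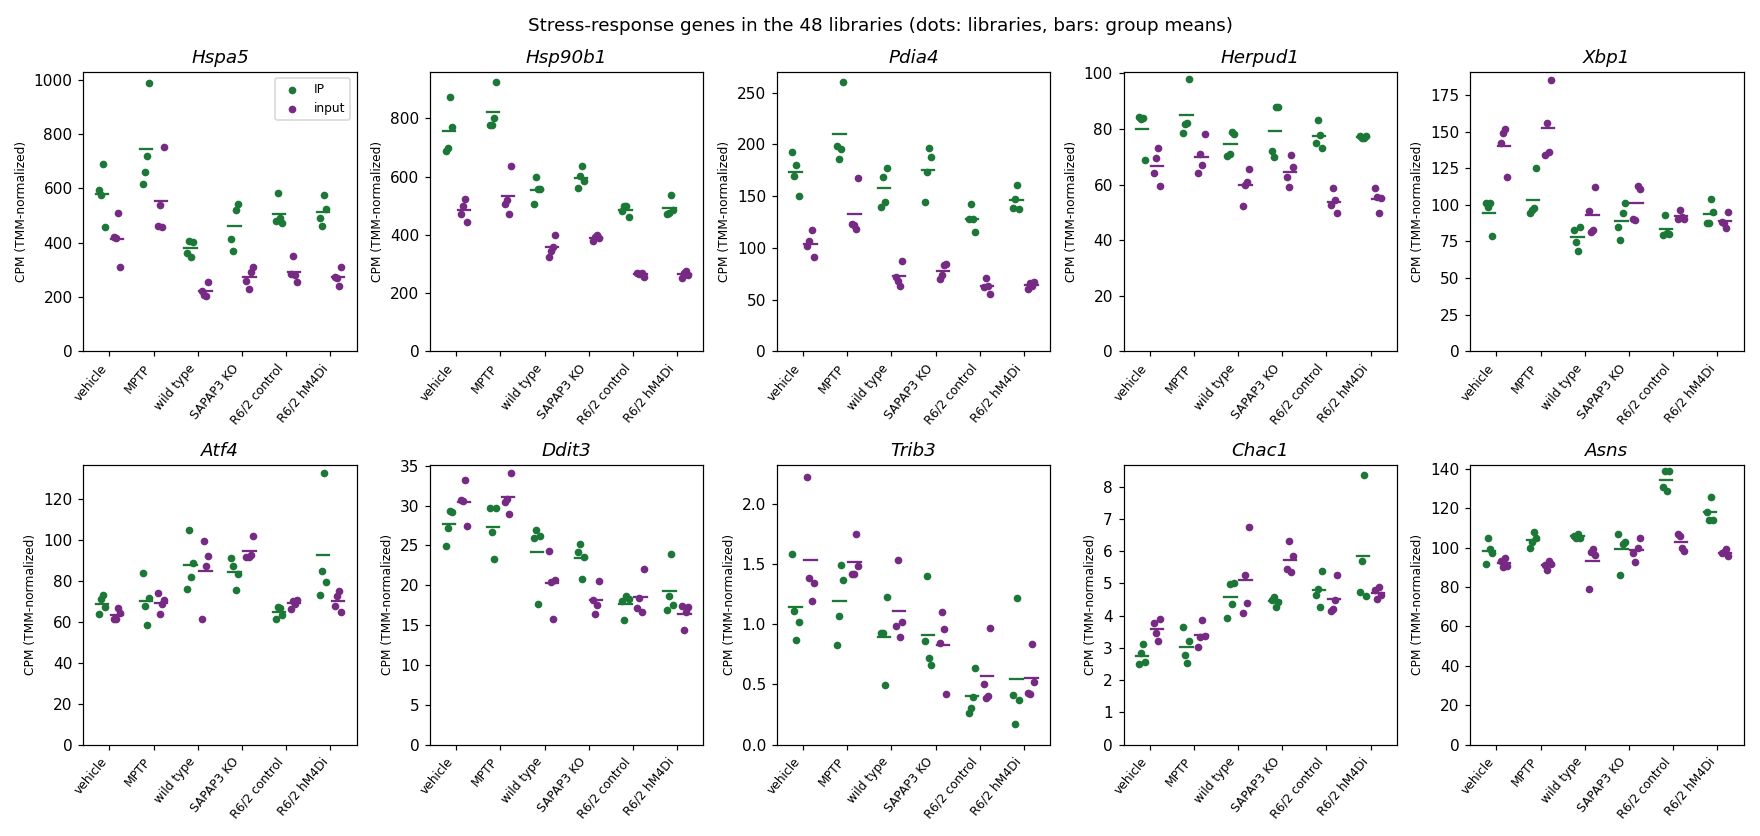
CPM of each of the 10 genes (vertical axis, 1 panel a gene) in all 48 libraries, by condition on the horizontal axis, IP in green and input in purple, with bars at the group means of 4 mice. Hsp90b1, Hspa5 and Pdia4 are higher in IP than in input throughout, Asns is highest in the R6/2 control IP at 129 to 139 CPM, and Atf4 has 1 high library in the hM4Di IP at 133 CPM.

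The question of which members are carried by astrocyte ribosomes more than by the striatum at large was addressed by setting IP against input within each experiment, over 8 replicates. The fit had no term for the animal, so IP and input of 1 mouse entered as separate libraries and their pairing was not used. The folding machinery was higher in IP in all 3 experiments. Pdia4 led, with log2 differences of 0.64 ± 0.08 (SE), 1.14 ± 0.08 and 1.1 ± 0.06 in the MPTP, SAPAP3 and R6/2 experiments. In R6/2 control mice Pdia4 was 128, 142, 128 and 115 CPM in IP and 62.2, 71.0, 63.0 and 55.6 CPM in input, with every IP library far above every input. Hsp90b1 was higher by 0.57 ± 0.06, 0.62 ± 0.05 and 0.88 ± 0.03, and Hspa5 by 0.40 ± 0.12, 0.76 ± 0.08 and 0.84 ± 0.07. Herpud1 was higher by 0.22, 0.30 and 0.50, the first of which was -0.01 on FPKM. Xbp1 lay the other way from the chaperones: it was lower in IP by 0.62 ± 0.08 in the MPTP experiment and by 0.23 ± 0.08 in the SAPAP3 experiment, and its R6/2 difference of -0.04 did not pass. In vehicle mice Xbp1 was 101, 98.6, 101 and 78.4 CPM in IP and 142, 149, 152 and 119 CPM in input, so each IP library was below each input.

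The integrated stress response members had no common direction between the fractions. Atf4 did not pass the test in any of the 3 experiments, with log2 differences of 0.01, -0.06 and 0.15, although on FPKM the first was -0.21 and passed. Asns was higher in IP in R6/2 mice, by 0.33 ± 0.03, and by 0.08 in the MPTP experiment, a value that was -0.06 with upper-quartile scaling and -0.14 on FPKM. In the SAPAP3 experiment 0.09 did not pass and was -0.12 on FPKM. Ddit3 was lower in IP by 0.22 in the MPTP experiment and higher by 0.31 in the SAPAP3 experiment. Chac1 was lower by 0.33 and 0.27 in those experiments, and Trib3 was lower by 0.43 in the MPTP experiment. In all, 9, 7 and 5 of the 10 members passed edgeR's quasi-likelihood test at an adjusted p of 0.05 (Benjamini-Hochberg over all genes), where 83.7%, 80.2% and 80.3% of all genes tested did. The count of members is therefore near or below that of genes at large. With the animal as a block, 84.9%, 83.3% and 83.6% of all genes passed in the MPTP, SAPAP3 and R6/2 experiments. Differences in IP against input are relative to the scaling: upper-quartile scaling moved the median of all genes by -0.137, -0.144 and -0.119 in the MPTP, SAPAP3 and R6/2 experiments, and FPKM by -0.142, -0.145 and -0.158. Hspa5, Hsp90b1 and Pdia4 had a higher IP level in every experiment under both, but the Hspa5 value in the MPTP experiment no longer passed, at 0.27 and 0.18.

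**Figure D2:**
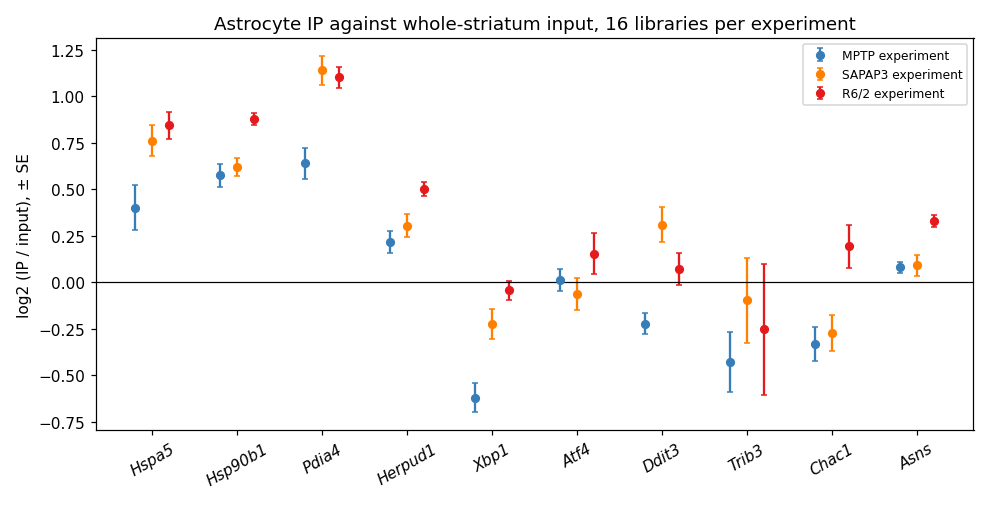
Log2 difference of IP over input with its SE for each of the 10 genes (horizontal positions) in the MPTP, SAPAP3 and R6/2 experiments, 8 replicates each. Pdia4, Hsp90b1 and Hspa5 lie above 0 in each experiment, Xbp1 lies at -0.62, -0.23 and -0.04, and Atf4 lies near 0.

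The wider pathways showed where the astrocyte share was larger. Of 28 other ATF4 and CHOP targets, 23, 22 and 22 were higher in IP in the 3 experiments, against 40.7%, 40.3% and 39.3% of all genes, with list medians of 0.88, 0.86 and 0.83. Among them were the serine synthesis genes Phgdh, with log2 differences of 1.78, 1.94 and 1.98, and Psat1, with 1.53, 1.58 and 1.33. Of 12 cytosolic tRNA synthetases, which charge tRNA with amino acids and are ATF4 targets in part, 12 were higher in IP in each experiment, with medians of 0.49, 0.45 and 0.53. Of 22 other ER chaperones and folding enzymes, 13, 17 and 17 were higher. They included Dnajc3, a BiP co-chaperone, at 0.91, 1.11 and 1.02, and Canx, the lectin chaperone calnexin, at 0.98, 1.00 and 1.07. Of 21 stress sensors and regulators, 16, 17 and 18 were higher, among them Creb3l1 at 3.02, 1.94 and 2.02. Of 17 genes of ER-associated degradation, 11, 13 and 11 were higher. These lists describe these libraries and were chosen with earlier results of them known.

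MPTP against vehicle addressed whether the toxin alters astrocyte RNA. No member passed the test in IP or input, where 0% of 15069 and 0% of 15601 genes did with edgeR, and limma-voom called no member either. DESeq2 called no member while calling 2% of genes in IP and 0.436% in input. The chaperones gave the largest values. Hspa5 in IP was 594, 575, 688 and 458 CPM in vehicle mice and 614, 659, 717 and 989 CPM in MPTP mice. Only MPTP replicate 4 stood clear of the rest, and the groups overlapped. The log2 difference was 0.37 ± 0.16 (SE), with an unadjusted p of 0.0402 and an adjusted p of 0.416 by edgeR. In input Hspa5 was 419, 417, 509 and 310 CPM against 460, 539, 457 and 751 CPM, a log2 difference of 0.43 ± 0.16 with an adjusted p of 0.540. Without MPTP replicate 4 the differences for Hspa5 were 0.21 in IP and 0.24 in input, and without vehicle replicate 4 they were 0.28 and 0.31.

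Pdia4 in input was 102, 107, 117 and 90.9 CPM in vehicle mice and 123, 122, 118 and 168 CPM in MPTP mice. All 4 MPTP libraries were above all 4 vehicle libraries, a separation seen upward in 1.34% and in either direction in 4.33% of genes. The log2 difference was 0.36 ± 0.11, with an unadjusted p of 0.00591 and an adjusted p of 0.512 by edgeR. In IP Pdia4 was 193, 170, 180 and 150 CPM against 199, 186, 196 and 260 CPM, where the groups overlapped, at 0.29 ± 0.11 with an adjusted p of 0.378. Without MPTP replicate 4 the Pdia4 differences were 0.23 in input and 0.18 in IP. Atf4 in input had a difference of 0.14 ± 0.05 with an unadjusted p of 0.0243 and an adjusted p of 0.543. At an unadjusted p under 0.05, 2 members in IP and 3 in input passed, against 11.2% and 8.26% of genes. The integrated stress response members in IP had differences of 0.04 for Atf4, 0.00 for Ddit3, 0.07 for Trib3, 0.15 for Chac1 and 0.09 for Asns. The median over the 10 was 0.112 in IP and 0.109 in input, against 0.0056 and 0.0091 over all genes.

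No gene of the pathway lists passed under MPTP. The smallest p-values in IP belonged to Slc38a2, an amino acid transporter, at 0.43 with an adjusted p of 0.157, and to Cebpb, a partner of ATF4, at 0.40 with an unadjusted p of 0.0096. In input, Manf, a secreted ER stress protein, had 0.35 with an adjusted p of 0.535 by edgeR. Beside these values, 8 of 8 glucocorticoid-induced genes had higher values in the MPTP IP, with sums of 644 to 899 CPM against 491 to 612. Of 12 astrocyte markers 11 had lower values in IP, with sums of 27900 to 31800 CPM against 29600 to 38100. Their part in the chaperone values was not tested.

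SAPAP3 knockout against wild type likewise gave no member past the test, where 0.0263% of 15198 genes passed in IP and 0.00641% of 15591 in input with edgeR; DESeq2 called no member. Hspa5 had the smallest unadjusted p of the 10. In IP it was 360, 405, 348 and 401 CPM in wild-type mice and 412, 370, 519 and 541 CPM in the knockout. Knockout replicates 1, 3 and 4 were above every wild-type library, replicate 1 narrowly, and replicate 2 was not. The log2 difference was 0.28 ± 0.12, with an unadjusted p of 0.0452 and an adjusted p of 0.999 by edgeR. In input it was 223, 207, 205 and 254 CPM against 257, 228, 291 and 311 CPM, at 0.29 ± 0.10 with an unadjusted p of 0.0181 and an adjusted p of 0.735. Without wild-type replicate 1, the library that stood apart, Hspa5 differed by 0.26 in IP and 0.30 in input. At an unadjusted p under 0.05, Hspa5 was the only one of the 10 in each fraction, against 2.63% of genes in IP and 5.57% in input. Whether the MPTP or the knockout difference itself differed between IP and input was tested as an interaction in each experiment, in which edgeR called 0 members and no member had an unadjusted p under 0.05, as 7.98% and 1.26% of genes did; DESeq2 called no member.

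In the knockout the other 4 unfolded protein response members had IP differences of 0.19 for Xbp1, 0.15 for Pdia4, 0.10 for Hsp90b1 and 0.09 for Herpud1. Atf4, Ddit3 and Chac1 had -0.06, -0.05 and -0.05, Asns had -0.09 and Trib3 had 0.01. Trib3 in input had -0.40, at levels of 0.417 to 1.1 CPM in the knockout. No gene of the pathway lists passed. The smallest p-values in IP were those of Slc38a2, at 0.35, and Manf, at 0.24. The glucocorticoid-induced list was on the higher side here too, 8 of 8 in IP, with sums of 584 to 1050 CPM against 407 to 668, and 12 of 13 immediate early genes had lower values. Their part in the Hspa5 values was not tested.

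**Figure D3:**
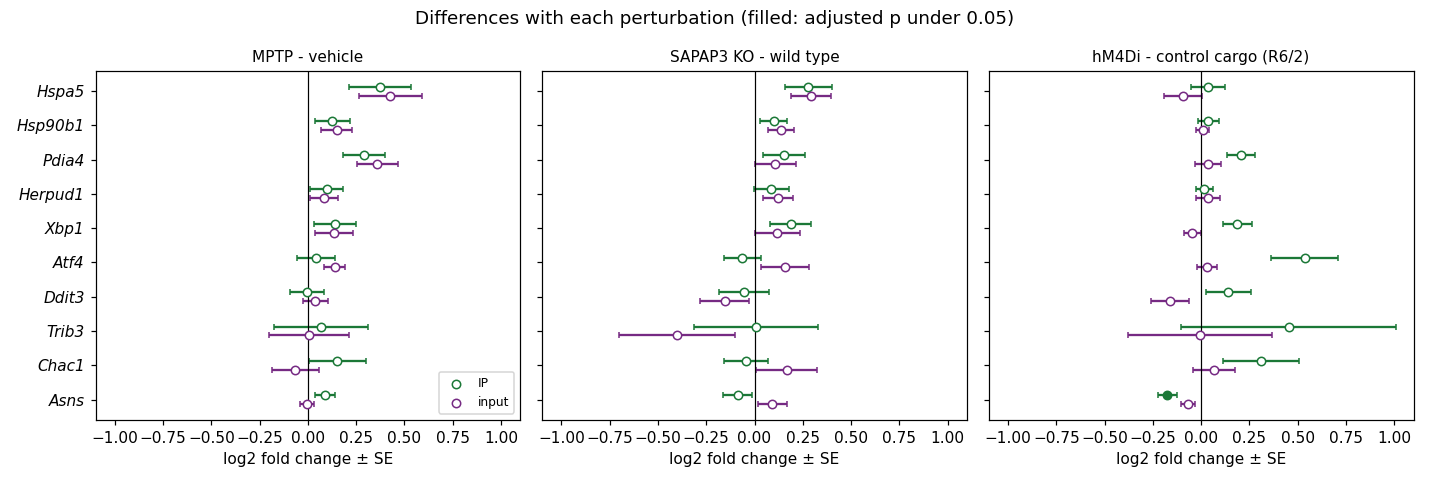
Log2 difference with its SE for each of the 10 genes under MPTP, SAPAP3 knockout and hM4Di (1 panel each), in IP and in input, 4 mice a group, filled where the adjusted p was under 0.05. Hspa5 lies at 0.37 and 0.28 in IP under MPTP and SAPAP3 knockout and at 0.04 under hM4Di, and the filled point is Asns in the hM4Di IP.

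hM4Di against control cargo in R6/2 mice addressed what the designer receptor changes in astrocytes of this disease model. In this comparison 14.7% of 15159 genes passed in IP (9.06% higher and 5.63% lower), and 1 of the 10 members did, Asns, which fell. Asns in IP was 131, 139, 129 and 139 CPM in the controls and 118, 114, 126 and 114 CPM with hM4Di. Every hM4Di library was below every control. The level fell by 11.4%, a log2 difference of -0.17 ± 0.05 with an adjusted p of 0.0455 by edgeR. The call was a narrow one: the adjusted p ran from 0.00509 to 0.111 over its alternatives. It was 0.0713, 0.0758 and 0.0792 without control replicates 1, 2 and 4, and 0.0863, 0.111 and 0.105 without hM4Di replicates 1, 2 and 4. The hM4Di libraries of Asns also lay above the 86.1 to 108 CPM of the 4 IP groups of the other experiments. Those were separate projects, so transgene, virus cargo and project cannot be told apart in that difference.

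Atf4 in IP was 61.5, 67.4, 67.0 and 63.5 CPM in the controls and 73.2, 84.7, 133 and 79.7 CPM with hM4Di. All 4 hM4Di libraries were above the controls, and replicate 3 was far above the other 3. The log2 difference was 0.54 ± 0.17, with an adjusted p of 0.0659 by edgeR, which did not pass. Without hM4Di replicate 3 the difference was smaller, 0.30 ± 0.06, and passed, with an adjusted p of 0.0254. With hM4Di replicate 1 left out it was 0.64 with an adjusted p of 0.0406, and DESeq2 gave an adjusted p of 0.0116 on all 8 libraries. Atf4 and Asns were the 2 members whose groups did not overlap, which was so for 23.5% of genes.

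The remaining effectors rested on that 1 library. Chac1 in IP was 4.65, 4.83, 4.28 and 5.4 CPM in the controls and 4.72, 5.7, 8.38 and 4.6 CPM with hM4Di, a log2 difference of 0.31 with replicate 3 and 0.08 without it. Trib3 was 0.266, 0.305, 0.398 and 0.634 CPM against 0.409, 0.173, 1.22 and 0.372 CPM, and its difference of 0.45 became -0.31 without replicate 3. Ddit3 was 18, 15.6, 18.7 and 18.3 CPM against 16.9, 18.6, 23.9 and 17.5 CPM, with a difference of 0.14 that became 0.01. None of the 3 passed.

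Among the unfolded protein response members, Pdia4 had 0.21 ± 0.07 with an adjusted p of 0.083 and Xbp1 0.19 ± 0.07 with an adjusted p of 0.122. Pdia4 passed without control replicate 2, with an adjusted p of 0.0483. Hspa5, Hsp90b1 and Herpud1 had 0.04, 0.04 and 0.02. Hspa5 was 481, 583, 489 and 471 CPM in the controls and 490, 462, 576 and 523 CPM with hM4Di, with full overlap. The median over the 10 members was 0.164, against 0.0052 over all genes. In input no member passed with edgeR (0.0198% of 15168 genes did), none had an unadjusted p under 0.05 (7.67% of genes did) and DESeq2 called none, with differences of 0.03 for Atf4, -0.07 for Asns, -0.09 for Hspa5 and -0.16 for Ddit3.

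Whether the hM4Di difference was larger in IP than in input was tested as an interaction, in which 3.1% of 15880 genes passed. No member did: Atf4 had 0.50 ± 0.19 with an unadjusted p of 0.0197 and an adjusted p of 0.174, Xbp1 had 0.22 ± 0.09 with 0.180 and Asns had -0.12 with 0.322. IP and input of the same mouse deviated together in this experiment, and with the animal as a block the interaction passed for Atf4, at 0.46 ± 0.11 with an adjusted p of 0.0117, and for Xbp1, at 0.22 ± 0.07 with 0.0314. In that blocked fit 17.4% of all genes passed.

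Of the 28 other ATF4 and CHOP targets, 9 rose in the hM4Di IP and 0 fell, where 9.06% of all genes rose. The list median was 0.187, beside 0.164 for the members. Sesn2, a leucine sensor that restrains mTORC1, went from 40.5, 37.5, 39.4 and 39.4 CPM to 67.6, 62.8, 72.4 and 64.2 CPM. Its groups were far apart and narrow, with a log2 difference of 0.79 ± 0.05 and an adjusted p of 0.000747 by edgeR. Cebpb, a C/EBP factor that pairs with ATF4, went from 2.48, 3.59, 2.89 and 3.5 CPM to 17, 12.5, 12.2 and 7.8 CPM, at 2.01 ± 0.23. Ndrg1, a stress-induced gene, rose by 0.83 ± 0.11, and Aldh1l2, the mitochondrial folate dehydrogenase, by 1.23 ± 0.18. In each of these 4 genes, all 4 hM4Di libraries were above all 4 controls.

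The other 5 that rose were Atf3, Slc3a2, Slc7a5, Cebpg and Psph, which are named here after their values were seen. Atf3, a stress-induced repressor, was 0.753, 1.02, 1.23 and 1.05 CPM in the controls and 3.68, 8.37, 29.4 and 3.27 CPM with hM4Di, at 3.48 ± 0.73. Slc3a2 and Slc7a5, the subunits of the large amino acid transporter LAT1, rose by 0.61 ± 0.11 and 0.53 ± 0.14. Slc3a2 was 195, 206, 285 and 218 CPM with hM4Di, and Slc7a5 was 62.2, 53.3, 87.3 and 67.1 CPM. Replicate 3 was again the highest in Atf3, Slc3a2 and Slc7a5, as in Atf4, Chac1, Trib3 and Ddit3. Cebpg rose by 0.20 and Psph, the last enzyme of serine synthesis, by 0.19. Without replicate 3, 7 of the 28 passed; without control replicate 1 5 did, and no other library left out moved the number by over 1.5 times.

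**Figure D4:**
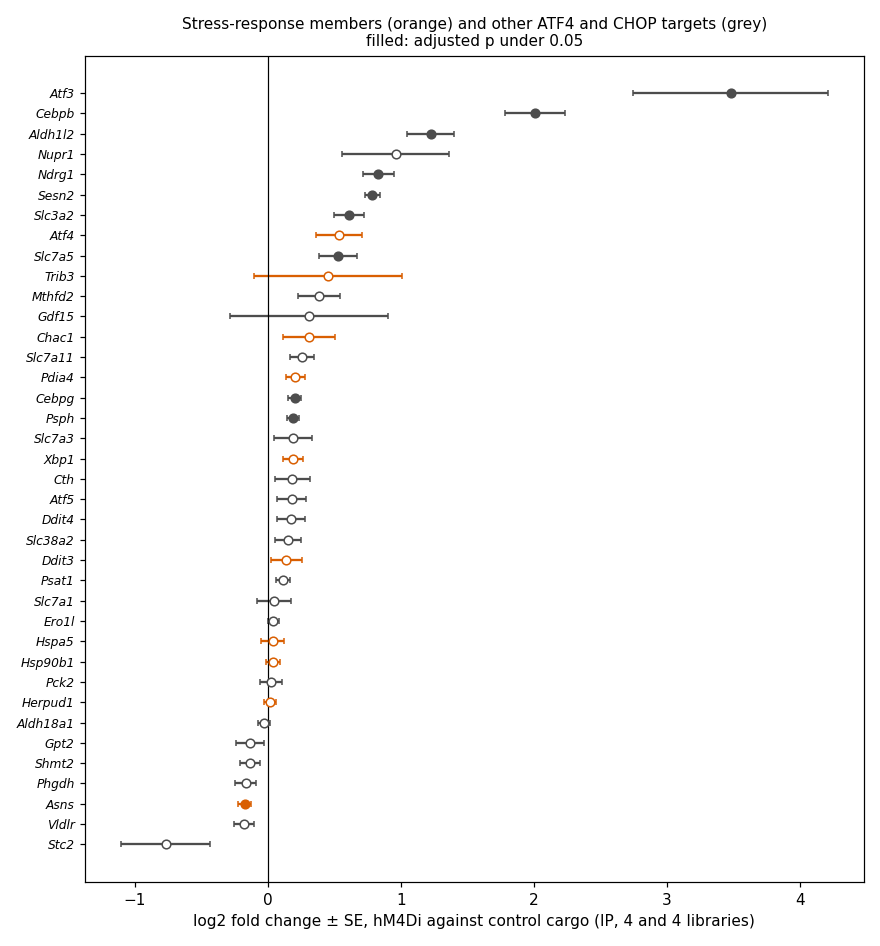
Log2 difference of hM4Di over control cargo in the R6/2 IP with its SE, for the members (orange) and the other ATF4 and CHOP targets (grey), 4 mice a group, filled where the adjusted p was under 0.05. Cebpb at 2.01 and Atf3 at 3.48 stand far to the right, and Asns at -0.17 is the filled point on the lower side.

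The tRNA synthetases did not follow: 0 of 12 passed and 9 of 12 had lower values, with a median of -0.0433. Eprs had 0.35 and Sars -0.08, neither of which passed. Of the 22 other ER chaperones and folding enzymes, 4 rose and 0 fell, with a list median of 0.0614. Dnajc3 was 157, 164, 159 and 140 CPM in the controls and 185, 189, 200 and 185 CPM with hM4Di, at 0.31 ± 0.05 with an adjusted p of 0.00976 by edgeR. Sil1, the nucleotide exchange factor of BiP, rose by 0.24, Ppib, a prolyl isomerase, by 0.22 and Creld2 by 0.31. Without control replicate 1 the list had 1 call and without hM4Di replicate 2 it had 2. Of 21 sensors and regulators, Ppp1r15a and Creb3l2 rose. Ppp1r15a encodes GADD34, which brings a phosphatase to eIF2α, and it went from 12.2, 12.9, 15.8 and 14.8 CPM to 26.8, 30.8, 66.4 and 25.8 CPM, at 1.45 ± 0.30. Of 17 degradation genes 1 rose, Edem2, by 0.33 ± 0.07. The counts for the sensors and for degradation are near or below the 9.06% of all genes that rose. The interaction with the fraction passed for Cebpb at 1.67, Ndrg1 at 1.00, Sesn2 at 0.44 and Dnajc3 at 0.29. That of Dnajc3 did not pass when control replicate 1 or 3, or any 1 of the 4 hM4Di replicates, was left out.

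Other lists moved in the same libraries. Of 13 immediate early genes, 7 rose and 0 fell in the hM4Di IP, with sums of 325 to 872 CPM against 144 to 260. Atf3 belongs to that list as well. Of 8 oligodendrocyte markers, 8 rose, with sums of 5070 to 7240 CPM against 2840 to 3970 and a median log2 difference of 0.795. All 8 also passed the interaction with the fraction, with a median of 0.801, where Ndrg1 had 0.995. Whether Ndrg1 followed these markers was not tested. Of 11 medium spiny neuron markers, 8 fell and 0 rose, with sums of 1760 to 1870 CPM against 2110 to 3230. Of 12 astrocyte markers, 2 fell and 1 rose, although their sums were 19200 to 20600 CPM against 23500 to 26500. The microglial sums lay at 57.3 to 65.7 CPM against 53.7 to 59.1. Rpl22, the gene of the tagged ribosomal protein, was at 230 to 293 CPM against 292 to 647. The part of these lists in the ATF4 target values was not tested.

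The IP share of Asns differed between experiments. IP minus input in R6/2 control mice, set against vehicle and wild-type mice together, was 0.25 ± 0.07 higher on the log2 scale for Asns, with an adjusted p of 0.0142 by edgeR, and Asns was the 1 of 10 members that passed. Of all 16318 genes 14.9% passed, and 4.58% were higher. Without R6/2 control replicate 4 the Asns value was 0.22 with an adjusted p of 0.0779. With the animal as a block, 5 members passed, among 25.5% of genes: Asns at 0.25, Xbp1 at 0.26, Hsp90b1 at 0.23, Herpud1 at 0.22 and Atf4 at -0.18. Wild type against vehicle, 2 control groups of different projects, gave 0 members in the same test (12.9% of genes), and with the animal as a block 4: Ddit3 at 0.39, Pdia4 at 0.38, Xbp1 at 0.30 and Hspa5 at 0.27. The R6/2 transgene, the virus cargo, any difference in age and the project cannot be told apart in the first of these contrasts. Cell type markers differed in it too. Of 8 oligodendrocyte markers 8 were lower (median -0.872), of 6 precursor markers 6 were lower (median -1.39), and of 12 astrocyte markers 2 were lower and 0 higher. Their part in the Asns value was not tested.

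Within groups the unfolded protein response genes varied from mouse to mouse together. Each library's log2 CPM was taken as a deviation from its group's mean, over 24 libraries a fraction. Among Hspa5, Hsp90b1, Pdia4, Herpud1 and Xbp1, the 10 pairs had a median Pearson r of 0.709 in IP (0.281 to 0.896) and 0.743 in input (0.661 to 0.882). Hspa5 and Xbp1 were the closest pair, at 0.896 in IP and 0.882 in input. By experiment the median of the 10 pairs was 0.884, 0.578 and 0.756 in IP and 0.934, 0.625 and 0.590 in input for MPTP, SAPAP3 and R6/2. The 10 pairs among Atf4, Ddit3, Trib3, Chac1 and Asns had medians of 0.362 in IP and 0.051 in input, and the 25 mixed pairs had 0.164 and 0.035. Within the second set, Atf4 and Chac1 stood at 0.883 in IP and 0.394 in input, and Atf4 and Asns at 0.164 and 0.787. The highest of these values include libraries far from their group's mean. In IP, hM4Di replicate 3 deviated by 0.568 for Atf4 and 0.563 for Chac1. In input, wild-type replicate 1 deviated by -0.439 for Atf4 and -0.226 for Asns. Each was the farthest deviation of its gene in that fraction. Genes of 1 library share its RNA and depth, so these correlations are descriptions with no test.

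The mice behind this pattern can be named. MPTP replicate 4 had all 5 unfolded protein response genes above its group's mean in IP, with a median deviation of 0.277 (log2) in IP and 0.283 in input. Vehicle replicate 4 lay on the other side, at -0.212 and -0.191. Vehicle replicate 3, knockout replicate 3 and R6/2 control replicate 2 also had all 5 above the mean in IP. hM4Di replicate 3, the library with the highest Atf4, had a median deviation of 0.144 in IP and -0.084 in input, and its Hspa5 was 576 CPM in IP, the highest of its group, and 240 CPM in input, the lowest.

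By the titles, IP and input are separate libraries of the same mouse. Their agreement was therefore tested over 23 replicates, all but MPTP replicate 2 (100000 permutations, 2-sided, adjusted over the 10 genes). Hspa5 had Pearson r = 0.825 and Spearman rho = 0.795, with adjusted permutation p-values of 0.00215 and 0.00302. Without the 2 mice farthest from the median, r was 0.741. Xbp1 had 0.818 and 0.785 (permutation p 0.00224 and 0.00302 adjusted), Herpud1 0.786 and 0.785 (0.0012 and 0.0023), and Pdia4 0.783 and 0.762 (0.00215 and 0.00302). Without the 2 farthest mice, r was 0.764, 0.723 and 0.721 in these 3. Trib3 had 0.68 and 0.651 (permutation p 0.00215 and 0.0059 adjusted), and Atf4 0.483 and 0.551 (0.0326 and 0.022). For Hsp90b1, r was 0.548 and its adjusted permutation p 0.0627, and r fell to 0.338 without the 2 farthest mice. Ddit3, Asns and Chac1 had r of 0.37, 0.186 and 0.077 and did not pass.

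Genes at large also moved together between the fractions of a mouse, with a median r of 0.373 over 15486 genes. The r of Hspa5 was reached by 3.4% of genes, Xbp1's by 3.68%, Herpud1's by 5.19% and Pdia4's by 5.35%. Trib3's was reached by 13%, Hsp90b1's by 27.3% and Atf4's by 35.7%, so an r like that of Atf4 was common among genes. Within experiments the relation was not equally strong. The MPTP values below use deviations from group means that include MPTP replicate 2, while the pooled r used means without it. For Hspa5, r was 0.962 over 7 replicates of the MPTP experiment, 0.85 over 8 of the SAPAP3 experiment and 0.355 over 8 of the R6/2 experiment. For Xbp1 the values were 0.967, 0.865 and 0.107, so the pooled relation of these 2 genes rests on the first 2 experiments. Herpud1, at 0.891, 0.784 and 0.666, and Pdia4, at 0.868, 0.75 and 0.665, were high in each. Atf4 had 0.714, 0.612 and 0.719.

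**Figure D5:**
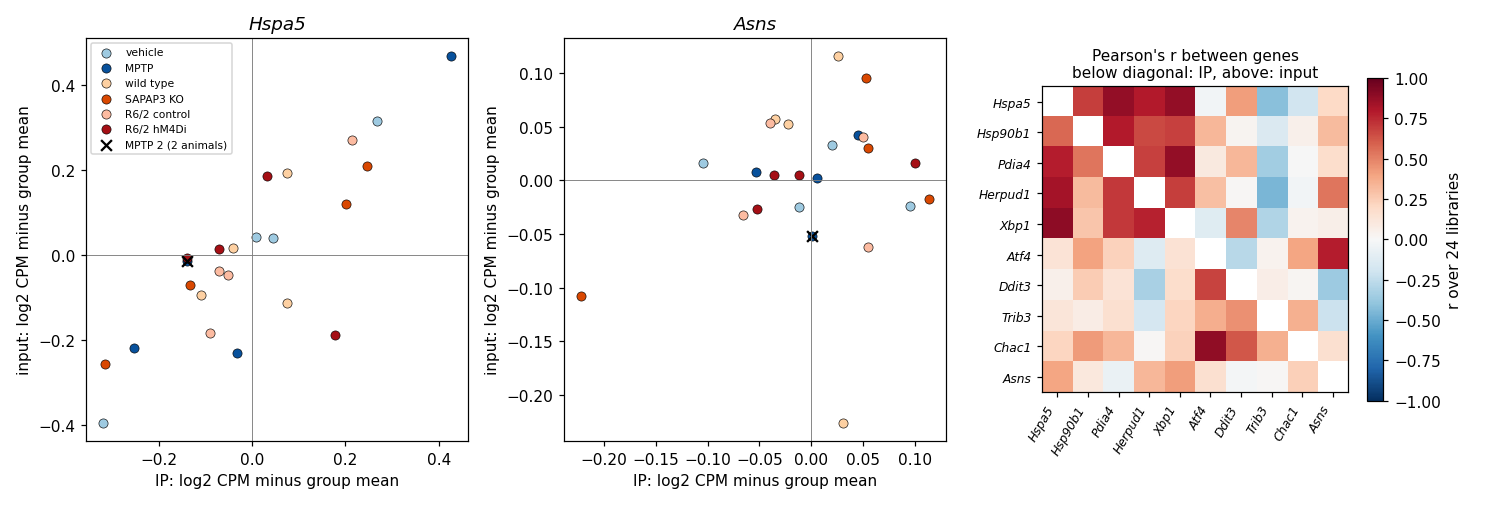
Left, deviation of log2 CPM from the group mean in IP against input for Hspa5 and Asns, 1 point a mouse, coloured by group, with a cross for MPTP replicate 2. Right, Pearson r between members over 24 libraries, IP below the diagonal and input above it: r is 0.825 for Hspa5 and 0.186 for Asns over 23 replicates, and the unfolded protein response block has a median r of 0.709 in IP.

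Outside the 10 members, the genes most like Hspa5 across the 24 IP libraries, among 12725 genes, were Pdia6 at r = 0.919, Hspa1b at 0.911, Hspa1a at 0.878, Cct4 at 0.856 and Manf at 0.85. Across the 24 inputs, among 13202 genes, they were Pdia6 at 0.941, Manf at 0.916, Ahsa2 at 0.864, Dnajc3 at 0.856 and Dnajb1 at 0.845. Pdia6, Manf and Dnajc3 are ER stress genes, while Hspa1a, Hspa1b, Cct4, Ahsa2 and Dnajb1 are chaperones or co-chaperones of the cytosol. With the members ranked among all these genes, Xbp1 was at rank 3 in each fraction, Herpud1 at 11 in IP and 16 in input, Pdia4 at 22 and 4, and Hsp90b1 at 306 and 61. For Asns the nearest member in input was Atf4, at rank 74, and in IP it was Xbp1, at rank 1256. Outside the members, the genes closest to Asns in IP were Nceh1 at 0.865, Cirh1a at 0.864 and Copg1 at 0.812, followed by Dync1li1 and Slc25a12. In input they were Ube2e1 at 0.896, Tspyl4 at 0.895 and Sc5d at 0.876, then Rufy3 and Rnf6. None of the 5 closest genes of Asns in IP was among its 5 closest in input, and wild-type replicate 1, whose input Asns was 78.9 CPM against 96.5 to 99.2 in the other 3 libraries, is part of those input values.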

How the data were processed

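RNA of 48 libraries was sequenced from stranded, ribosomal RNA-depleted preparations, per the labels' protocols. The deposited table holds whole-number read counts per gene, made by the authors with STAR and HTSeq on mm10, per the submitters' processing notes, which give no versions. The authors' second deposited table holds FPKM, which equals count over length and library total; it served for levels between genes and as an alternative on the log2(FPKM + 1) scale, which understates changes of low genes.

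Counts were tested with edgeR 4.0.16 (R 4.3.3): trimmed-mean scaling, filterByExpr with a minimum count of 10, the quasi-likelihood F test and Benjamini-Hochberg adjustment over all genes tested, with a threshold of 0.05. Each comparison used its own groups, with 4 libraries a group. IP-input differences were fitted over both fractions of an experiment, with no term for the animal, so the pairing of libraries within a mouse was not used. Alternatives were relative-log and upper-quartile scaling, DESeq2 1.42.0, limma 3.58.1 (voom, and FPKM), no count filter beyond 1 read, a replicate block, all 16 libraries of an experiment in the fit, and each replicate left out. The block was the animal where both fractions entered. Within 1 fraction it was the replicate number, which joins different mice that do not pair. The procedure was tested on simulated data. All 10 members passed the count filter in every comparison.

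Titles name the animals, so replicates are separate mice; wild-type replicate 3 may join more than 1. By the titles, IP and input with the same number come from the same animal, except MPTP replicate 2. Same-number correlations of deviations were 0.159 to 0.571 (MPTP), 0.406 to 0.666 (SAPAP3) and 0.521 to 0.785 (R6/2). The input of the same number was the best match of an IP in 5 of 8 cases in the MPTP experiment and 8 of 8 in each of the others. Vehicle replicates 1 and 4 and MPTP replicate 2 were the exceptions, so the pairing of those vehicle mice rests on the titles alone. Between control and perturbed groups the numbers belong to different mice and do not pair. No 2 libraries of a group agreed within counting noise (chi-square over its degrees of freedom 3.99 to 91.4).

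The members, the pathway and marker lists, and the tests were chosen with earlier results of these data known. Named besides the members are label checks, up to 4 called genes a list and comparison by smallest p (or up to 2 that did not pass), and the 5 genes most correlated with Hspa5 and with Asns; exceptions are named as such. All 10 promoters were matched by symbol in RefSeq.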

Additional observations from a re-analysis of the deposited data

Results flagged for a closer look

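Within groups of 4, 10 of 120 sets of values (10 genes, 12 groups) had a library whose distance from its nearest neighbour passed Dixon's 95% limit, where chance gives about 1 in 20, or 6. MPTP replicate 4 was such a library for Xbp1 in IP (125 CPM), Hsp90b1 in IP (926 CPM) and Pdia4 in input (168 CPM), each the highest of its group. Vehicle replicate 4 was the lowest for Xbp1 in IP (78.4 CPM) and Herpud1 in IP (68.7 CPM). R6/2 control replicate 2 was the highest in IP for Hspa5 (583 CPM) and Xbp1 (93.3 CPM). The other 3 were Atf4 in knockout input replicate 4 (102 CPM, highest), Ddit3 in wild-type IP replicate 3 (17.7 CPM, lowest) and Asns in wild-type input replicate 1 (78.9 CPM, lowest).

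Of the tests of a difference between contrasts, Asns passed for IP minus input in R6/2 control mice against vehicle and wild type, at 0.25 on the log2 scale. For the hM4Di difference in IP minus that in input, Cebpb passed at 1.67, Ndrg1 at 1.00, Sesn2 at 0.44 and Dnajc3 at 0.29.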

How the results depend on the processing

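Over 2240 recomputed values, 2189 stayed called in the same direction or stayed uncalled, and 96 of the uncalled ones among them changed sign. Of the rest, 19 lost a call, 27 gained one and 5 turned direction. The 5 were IP against input: in the MPTP experiment, Atf4 on FPKM (-0.21), Asns with upper-quartile scaling (-0.056) and on FPKM (-0.14) and Herpud1 on FPKM (-0.0094), and in the SAPAP3 experiment Asns on FPKM (-0.12). Members called in the hM4Di IP numbered 1, against 2 with DESeq2, 0 with limma-voom, 0 on FPKM, 0 with the replicate block, 3 with all 16 libraries and 0 to 2 with a replicate left out. That block joined control and hM4Di mice by number only, and these do not pair. In the hM4Di interaction, 0 members became 2 with the animal as replicate block, ATF4 targets went from 3 to 5 with DESeq2 and 10 with the block (2 to 4 with a replicate left out), and ER chaperones from 1 to 4 with the block (0 to 1). For IP minus input in R6/2 controls against the other controls, 1 member became 2 with relative-log scaling, 3 with upper-quartile scaling, 2 with DESeq2 and 5 with the block (0 to 2 with a replicate left out). Wild type against vehicle went from 0 to 4 with the block (0 to 1). With a replicate left out, the hM4Di IP gave 5 to 9 ATF4 targets and 1 to 4 ER chaperones, and IP against input 8 to 9 (MPTP), 7 (SAPAP3) and 5 (R6/2) members. The replicate block changed no other such count of members, and the cause of these changes was not tested.

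Counts over all genes moved by over 1.5 times in these cases. For IP or input alone, the block joined different mice by replicate number, which do not pair. MPTP IP: 0, against 302 with DESeq2, 289 with all 16 libraries, and 65, 14 and 1 without vehicle replicate 2, MPTP replicate 1 and MPTP replicate 3. MPTP input: 0 against 68 with DESeq2, 1 without the count filter, 1 with the block and 2 without MPTP replicate 1. MPTP interaction: 0 against 55 with DESeq2. SAPAP3 IP: 4 against 8 with DESeq2, 2 with the block, 0 without wild-type replicate 4, and 2 without any other 1 replicate but knockout replicate 1. SAPAP3 input: 1 against 8 with DESeq2 and 3 with all 16 libraries and 0 without knockout replicate 2, 3 or 4. SAPAP3 interaction: 0 against 1 with DESeq2. hM4Di IP: 2227 against 3491 with DESeq2, 3636 with all 16 libraries, 892 without control replicate 1, 1084 without hM4Di replicate 2 and 1409 without control replicate 4. hM4Di input: 3 against 53 with DESeq2, 6 with the block and 5 without the count filter. hM4Di interaction: 492 against 1154 with DESeq2, 2761 with the block, 91 and 208 without control replicates 1 and 3, and 323, 202, 280 and 128 without hM4Di replicates 1 to 4. R6/2 controls against the other controls: 2427 against 4159 with the block, and 1461 and 1524 without R6/2 control replicates 1 and 4. Wild type against vehicle: 2113 against 3892 with the block, 1154 and 932 without vehicle replicates 3 and 4, and 1013 and 1144 without wild-type replicates 2 and 4. At 0.173 to 2.22 CPM, Trib3 rests on few reads a library.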
